A study of Mus musculus with 6 samples.

Results

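Interferon regulatory factors (IRFs) were examined in mouse bone marrow-derived macrophages (BMDMs) that had been co-cultured with ID8 cells. Members were the rows of the deposited gene table with the symbols Irf1, Irf2, Irf3, Irf4, Irf5, Irf7, Irf8 and Irf9, which gave 8 genes of 54532 listed. The rows were picked by symbol, and the family was chosen with earlier results of these data known. ID8 is a mouse ovarian cancer line derived from ovarian surface epithelium. Before co-culture the tumour cells received cisplatin (3 libraries, 40 µM), which forms DNA crosslinks, or phosphate-buffered saline (PBS, 3 libraries), and the comparison asks how drug-exposed tumour cells act on macrophages. The drug was given to the ID8 cells, and no source used here describes it being added to the macrophages. Every library thus comes from a co-culture, and BMDMs kept without ID8 cells are not part of the comparison. By the study's methods the marrow cells, called monocytes there, came from C57BL/6 mice aged 6 to 8 weeks and were grown in serum-containing medium with no macrophage growth factor named. The length of the co-culture is not given in the sources used here. The labels do not state whether replicates were separate cultures or animals, so p-values measure the spread between these libraries.

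Expression is given as FPKM, a read number scaled by gene length and by a library size, which allows levels of different genes to be compared per length. Reads recovered from the FPKM values summed to between 15776238 and 17924686 per library. The library size behind the FPKM values lay above this sum in all 3 cisplatin libraries and below it in all 3 PBS libraries. Of the 13441 genes with at least 1 FPKM in at least 3 libraries, 4.67% were higher and 11.3% lower with cisplatin when both an adjusted p under 0.05 and a 2-fold change on the log2(FPKM + 1) scale were required (15.9% in either direction). At the adjusted p alone 32.9% were higher and 35.1% lower (68% in either direction). Below, rose and fell refer to the adjusted p alone, and genes past both thresholds are named as such. The split of 628 genes higher and 1514 lower became 835 and 1290 under quantile normalisation, 1227 and 1862 with limma voom on the recovered reads, and 85 and 5181 when libraries were scaled by the 4 Y-linked genes. That last scaling shifted the median log2 fold change of all tested genes from -0.0011 to -0.83. Quantile normalisation shifted it to 0.10, and scaling by the total recovered reads shifted it to 0.073.

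Markers of macrophages and of other cell types were detected in all libraries. All 9 macrophage markers tested were higher with cisplatin, with a summed level of 4191 to 4346 FPKM against 1638 to 1649 with PBS, and Lyz2, a lysozyme gene, was the most abundant of them. Of 16 ID8 and mesothelial markers, 10 were tested and 9 of these fell. Their summed level was 247 to 268 FPKM with cisplatin and 1312 to 1415 FPKM with PBS, and the keratin gene Krt19 was at 588 FPKM with PBS and 51.1 FPKM with cisplatin. Of 10 tested lymphocyte markers 8 rose (495 to 506 against 234 to 246 FPKM), with the B cell receptor component Cd79b as the most abundant. Of 8 neutrophil and immature myeloid markers 7 rose (8237 to 8504 against 4595 to 4750 FPKM), S100a9 being the most abundant. Of 6 tested dendritic cell markers 4 rose and 2 fell (27.1 to 28.6 against 16.96 to 17.1 FPKM). The 4 Y-linked genes all rose (41.6 to 42.8 against 19.5 to 22.7 FPKM), but not by the same factor. Mean levels with PBS and with cisplatin were 10.7 and 17.8 FPKM for Eif2s3y and 8.10 and 19.2 FPKM for Ddx3y. No marker of these lists was at 0 in all libraries. In bulk RNA, fewer cells of a type and less RNA per cell cannot be told apart, and the part of these cell types in the IRF results below was not tested.

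IRFs are transcription factors that share an N-terminal DNA-binding domain with conserved tryptophan residues and bind GAAA repeats, the core of the interferon-stimulated response element (ISRE). Irf3 and Irf7 are activated by phosphorylation downstream of nucleic acid and Toll-like receptor sensing and drive interferon genes. Irf9 joins STAT proteins, Stat2 among them, in the complex ISGF3, which carries the interferon signal to the ISRE, and Irf7 is itself a target of that complex. Irf1 is induced by interferon gamma through the STAT-binding GAS element and activates antigen presentation and antimicrobial genes, whereas Irf2 binds the same sites and can oppose it. Irf5 acts downstream of MyD88 on inflammatory cytokine genes, Irf4 competes for MyD88 and is needed for alternative macrophage activation, and Irf8 with its partner PU.1 directs monocytes and dendritic cells.

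The sequence upstream of 4 members is shown, for Irf1 and Irf7 because they changed most, and for Irf2 and Irf8 because they carry the other matches to the motifs searched. Each is the 250 bases before a RefSeq transcription start on GRCm38.p6, 5′ to 3′ in the direction of the gene, with motif matches in capitals:
Irf1 (chr11:53769764-53770013, plus strand): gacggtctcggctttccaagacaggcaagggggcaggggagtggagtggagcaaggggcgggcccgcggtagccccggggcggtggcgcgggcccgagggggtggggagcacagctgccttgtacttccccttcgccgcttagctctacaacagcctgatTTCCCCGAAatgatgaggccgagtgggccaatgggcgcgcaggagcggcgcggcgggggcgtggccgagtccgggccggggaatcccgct
Irf7 (chr7:141266425-141266674, minus strand): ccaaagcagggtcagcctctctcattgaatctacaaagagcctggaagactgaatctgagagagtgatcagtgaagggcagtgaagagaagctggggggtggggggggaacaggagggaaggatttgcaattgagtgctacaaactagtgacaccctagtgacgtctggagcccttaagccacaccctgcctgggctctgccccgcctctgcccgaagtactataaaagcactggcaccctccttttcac
Irf2 (chr8:46739495-46739744, plus strand): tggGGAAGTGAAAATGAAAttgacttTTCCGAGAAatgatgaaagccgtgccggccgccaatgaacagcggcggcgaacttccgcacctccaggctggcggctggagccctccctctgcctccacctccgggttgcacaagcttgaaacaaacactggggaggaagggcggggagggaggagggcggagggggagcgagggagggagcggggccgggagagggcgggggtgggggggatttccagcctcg
Irf8 (chr8:120736108-120736357, plus strand): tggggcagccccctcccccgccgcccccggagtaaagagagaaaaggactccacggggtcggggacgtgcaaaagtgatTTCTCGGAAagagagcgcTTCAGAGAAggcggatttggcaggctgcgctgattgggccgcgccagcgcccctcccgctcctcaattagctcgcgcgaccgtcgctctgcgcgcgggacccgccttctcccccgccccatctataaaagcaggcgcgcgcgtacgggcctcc

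RefSeq windows of 300 bases (250 before and 50 after a start) were found for all 8 members, 11 windows in all. They were searched on both strands for the GAS letters TTCNNNGAA (N is any base), for an ISRE-like run (GAAA, any 2 bases, then GAAA) and for a composite of an ETS and an IRF site (GGAA, any 2 bases, then GAAA). GAS letters stood in the windows of 3 members, and 8.3% of all 32851 windows in the table hold them. In Irf1 the match TTCCCCGAA began 90 bases before the start. In Irf8 the match TTCTCGGAA began 171 bases and TTCAGAGAA 153 bases before the start. Irf2 held all 3 motifs, namely the composite GGAAGTGAAA at 247 bases, the ISRE-like GAAAATGAAA, which overlaps it, at 241 bases and the GAS match TTCCGAGAA at 224 bases before the start. The ISRE-like letters occur in 3.44% and the composite in 2.72% of all windows. The windows of Irf3, Irf4, Irf5, Irf7 and Irf9 held none of these letters, and the 2 windows of Irf9 start downstream of its first annotated base in the table. A match is a run of letters and was not measured as a binding site.

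Irf7 and Irf1 were the 2 of 8 that passed both thresholds (15.9% of all tested genes did), and both were lower with cisplatin (11.3% of all tested genes). None passed both thresholds in the other direction. At the adjusted p alone 4 members fell and 3 rose (7 of 8 in either direction, against 68% of all tested genes), and in 7 of the 8 the groups did not overlap, against 72.4% of all tested genes. The median log2 fold change of the 8 was -0.093, beside -0.0011 for all tested genes. Between 730 and 6891 reads lay behind each value of a member.

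Irf7 (ENSMUSG00000025498, chromosome 7, 141262706 to 141266481, minus strand), the master regulator of interferon alpha genes, was at 15.8, 16.1 and 16.4 FPKM in the cisplatin libraries and at 103, 96.01 and 107 FPKM in the PBS libraries. All 3 cisplatin values lay far below every PBS value. Its level was 6.33-fold lower with cisplatin (log2 fold change -2.59 on log2(FPKM + 1), SE 0.046, limma, adjusted p = 7.06e-08), and 161 of the 13441 tested genes fell further. Under scaling by the Y-linked genes the log2 fold change was -3.55.

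Irf1 (ENSMUSG00000018899, chromosome 11, 53770014 to 53778374, plus strand) was at 21.9, 22.96 and 21.99 FPKM with cisplatin and at 55.4, 55.1 and 57.4 FPKM with PBS. The groups were again far apart, with a 2.51-fold lower mean (log2 fold change -1.29, SE 0.037, limma, adjusted p = 2.87e-07). Across the 18 other settings that were fitted, Irf1 and Irf7 stayed past both thresholds, and the Y-linked scaling gave -2.26 for Irf1. The tested ID8 and mesothelial markers had a median log2 fold change of -2.13 in the same libraries, and their part in the levels of Irf7 and Irf1 was not tested.

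**Figure D1:**
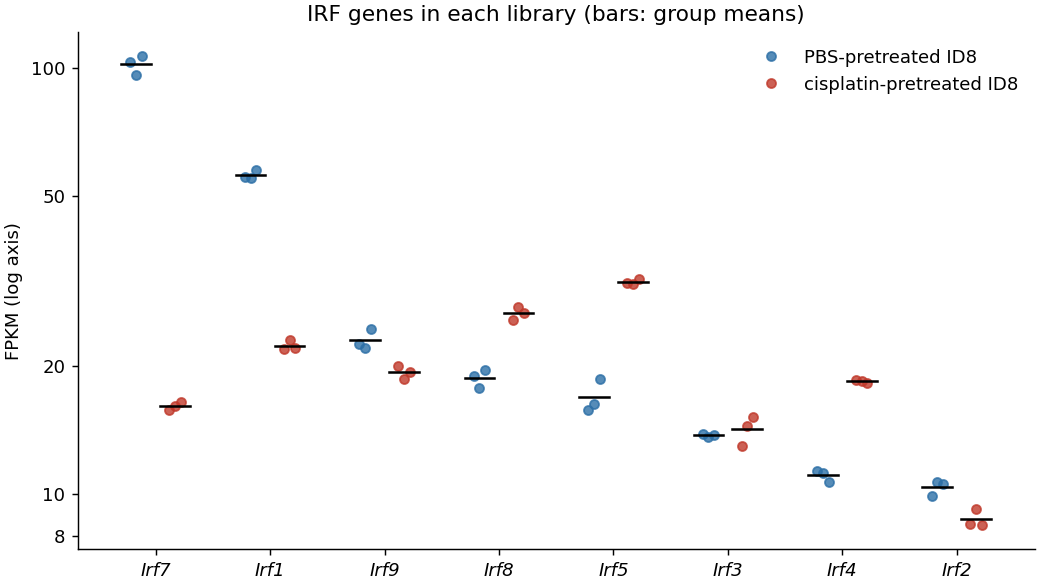
FPKM of the 8 IRF genes (log axis) in each of 3 PBS (blue) and 3 cisplatin (red) libraries, ordered by their PBS level, with points for libraries and bars for group means. Irf7 was at 102 FPKM with PBS and 16.1 FPKM with cisplatin, Irf3 overlapped between the groups, and Irf5, Irf8 and Irf4 were higher in all 3 cisplatin libraries.

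Irf9, the DNA-binding subunit of ISGF3 (ENSMUSG00000002325, chromosome 14, 55603571 to 55610030, plus strand), was at 20.01, 18.6 and 19.3 FPKM with cisplatin and 22.5, 21.99 and 24.4 FPKM with PBS. The groups did not overlap, but the step was small (log2 fold change -0.24, SE 0.052, limma, adjusted p = 0.00577). Irf2 (ENSMUSG00000031627, chromosome 8, 46739732 to 46847458, plus strand), the antagonist of Irf1, moved by a like amount, from 9.92, 10.7 and 10.6 FPKM with PBS to 8.55, 9.22 and 8.46 FPKM with cisplatin (log2 fold change -0.23, SE 0.053, limma, adjusted p = 0.00754). Under quantile normalisation the fall of Irf2 no longer passed (log2 fold change -0.12, limma, adjusted p = 0.0848). Scaled by the Y-linked genes, both passed the fold threshold as well, at -1.19 for Irf9 and -1.13 for Irf2.

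Irf3, which is held inactive in the cytoplasm until it is phosphorylated (ENSMUSG00000003184, chromosome 7, 44997648 to 45002848, plus strand), was at 12.999, 14.5 and 15.1 FPKM with cisplatin and at 13.9, 13.6 and 13.8 FPKM with PBS. It was the only one of the 8 whose groups overlapped, with cisplatin replicate 1 below and the other two cisplatin libraries above every PBS value. The log2 fold change was 0.040 with a 95% interval from -0.10 to 0.18 (limma, adjusted p = 0.569). Its sign was not stable, at -0.0038 without cisplatin replicate 3 and -0.89 under scaling by the Y-linked genes.

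Irf5, Irf4 and Irf8, the members tied to myeloid and lymphoid cells, rose at an adjusted p under 0.05, all short of the fold threshold, and all 3 turned negative when libraries were scaled by the Y-linked genes. Irf5 (ENSMUSG00000029771, chromosome 6, 29526625 to 29541871, plus strand) was at 31.2, 31.03 and 32.0 FPKM with cisplatin and at 15.7, 16.3 and 18.6 FPKM with PBS. Its mean was 1.86-fold higher (log2 fold change 0.86, 95% interval 0.71 to 1.01, limma, adjusted p = 2.52e-05). PBS replicate 3 was the highest of its group, and without it the log2 fold change was 0.93. The Y-linked scaling gave -0.096 for Irf5 (limma, adjusted p = 0.386).

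Irf4 (ENSMUSG00000021356, chromosome 13, 30749226 to 30766976, plus strand), which is also needed for plasma cell differentiation, was at 18.6, 18.5 and 18.3 FPKM with cisplatin and at 11.3, 11.2 and 10.7 FPKM with PBS. The 3 cisplatin values spread over less than 1 FPKM and stood clear of the PBS values, with a 1.66-fold higher mean (log2 fold change 0.69, SE 0.039, limma, adjusted p = 7.39e-06, and -0.25 under the Y-linked scaling). Irf8 (ENSMUSG00000041515, chromosome 8, 120736358 to 120756694, plus strand) was at 25.7, 27.5 and 26.5 FPKM against 18.97, 17.7 and 19.6 FPKM, a 1.42-fold higher mean (log2 fold change 0.48, SE 0.049, limma, adjusted p = 0.000126, and -0.47 under the Y-linked scaling). B cells and dendritic cells also express Irf4 and Irf8. On the log2 scale the tested lymphocyte markers had a median of 0.80, the tested dendritic cell markers 0.69 and the macrophage markers 0.87. The part of these cell types in the levels of Irf4, Irf5 and Irf8 was not tested.

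Under the Y-linked scaling the log2 fold change was below 0 for all 8 members, and Irf5 was the member that did not pass the test there. Relative to the median of all tested genes under that scaling, Irf5 stood 0.74, Irf4 0.58 and Irf8 0.36 higher, Irf3 lay 0.058 below it and Irf7 2.72 below it. The order of the members by their change was Irf7, Irf1, Irf9, Irf2, Irf3, Irf8, Irf4 and Irf5 in both cases. That scaling divides each library by a constant and shifts all genes nearly alike, so the order could hardly change and shows no stability.

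**Figure D2:**
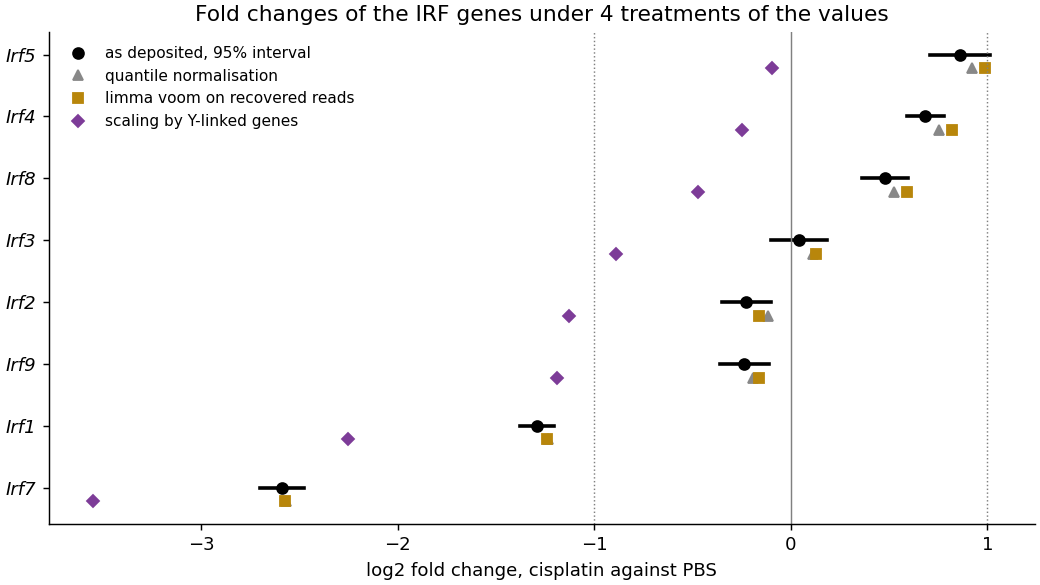
Log2 fold change of each IRF gene, cisplatin against PBS, from the deposited values (black, with 95% intervals) and under quantile normalisation, limma voom on recovered reads and scaling by the Y-linked genes. Dotted lines mark a log2 fold change of 1 in each direction. Scaling by the Y-linked genes took Irf5 from 0.86 to -0.096 and Irf7 from -2.59 to -3.55.

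The order of the members by level changed between the groups. With PBS it ran Irf7 (102 ± 5.38 FPKM), Irf1 (55.96 ± 1.25), Irf9 (22.97 ± 1.30), Irf8 (18.8 ± 0.93), Irf5 (16.9 ± 1.54), Irf3 (13.8 ± 0.13), Irf4 (11.1 ± 0.32) and Irf2 (10.4 ± 0.41; SD, n = 3). Only Irf8 and Irf5 had overlapping ranges among neighbours in that order, and Irf8 was the higher of them in all 3 libraries. The lowest Irf4 value with PBS, 10.72 FPKM, lay close to the highest Irf2 value, 10.67 FPKM. With cisplatin it ran Irf5 (31.4 ± 0.51 FPKM), Irf8 (26.6 ± 0.92), Irf1 (22.3 ± 0.57), Irf9 (19.3 ± 0.69), Irf4 (18.4 ± 0.16), Irf7 (16.1 ± 0.32), Irf3 (14.2 ± 1.10) and Irf2 (8.74 ± 0.42). No neighbours overlapped there, although the lowest Irf9 value, 18.6 FPKM, was within 0.1 FPKM of the highest Irf4 value. Irf7 went from first to place 6 and Irf5 from place 5 to first, while Irf2 was last in both groups.

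Summed over the 8 genes, the level was 155, 158 and 158 FPKM with cisplatin and 251, 243 and 262 FPKM with PBS. Irf1 and Irf7 made up 62.7% ± 0.47 of that sum with PBS and 24.4% ± 0.19 with cisplatin (SD, n = 3). The other 6 members summed to 119 ± 1.46 FPKM with cisplatin and 93.9 ± 3.40 FPKM with PBS. Irf5 took the largest share with cisplatin (20.001% ± 0.36), a place that Irf7 held with PBS (40.5% ± 0.81).

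**Figure D3:**
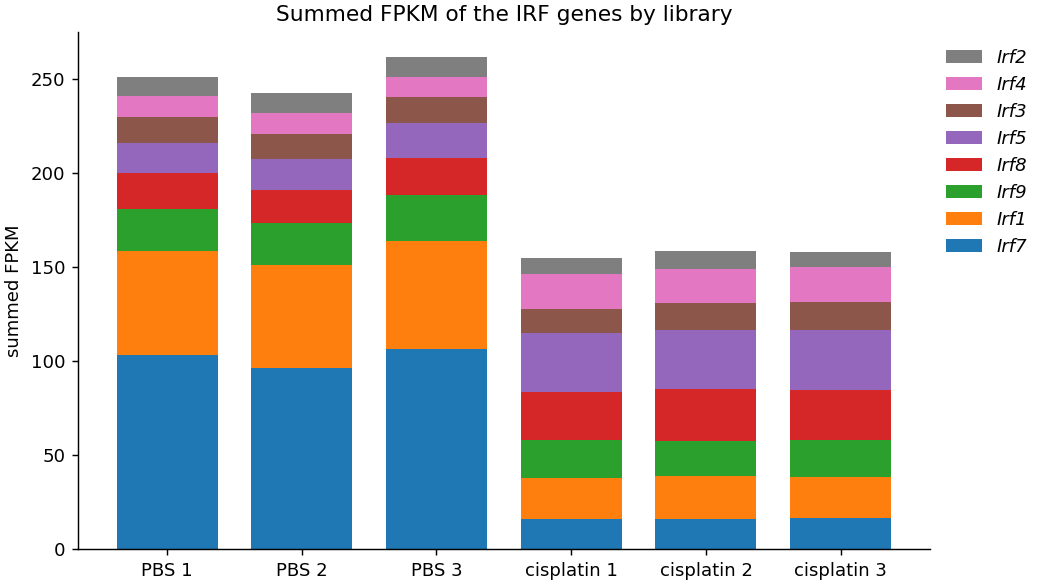
Summed FPKM of the 8 IRF genes in each library, with 1 colour per gene and the 3 PBS libraries on the left. The sum was 243 to 262 FPKM with PBS and 155 to 158 FPKM with cisplatin, and Irf1 and Irf7 made up 62.7% of it with PBS and 24.4% with cisplatin.

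Ratios between members do not change when a library is multiplied by a constant, and 4 pairs were compared within each library. Irf7 was 7.40 times the level of Irf3, its relative in interferon induction, with PBS and 1.13 times with cisplatin, a difference in log2 ratio of -2.70. Irf1 was 5.39 times the level of its antagonist Irf2 with PBS and 2.55 times with cisplatin (difference -1.08). The ratio of Irf4 to Irf8, partners of PU.1 that can share sites, moved by 0.23 on the log2 scale, from 0.591 to 0.693. In these 3 pairs the groups did not overlap (exact permutation test, two-sided, p = 0.1, the smallest that 3 against 3 allows, and adjusted p = 0.133 over the 4 pairs). The ratio of Irf4 to Irf5, which compete for MyD88, was 0.657 with PBS and 0.586 with cisplatin, and its groups overlapped (exact permutation test, two-sided, p = 0.3, adjusted p = 0.3). The difference in that log2 ratio was -0.16, but -0.10 without PBS replicate 1 and -0.26 without PBS replicate 3.

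Genes around the IRFs were then taken from lists that were chosen with earlier results of these data known. The shares of all tested genes given above are their background. Adaptors and kinases that activate Irf3, Irf5 and Irf7 moved in both directions by small amounts. All 18 found in the table were tested, 3 rose, 7 fell and none reached the fold threshold. The median of the list was 0.010, or -0.95 under the Y-linked scaling. The largest rise and the largest fall, named after their values were seen, were those of the adaptor genes Myd88 (25.4, 25.6 and 24.9 FPKM with PBS, 37.1, 39.2 and 36.8 FPKM with cisplatin, log2 fold change 0.56) and Mavs (12.5, 13.5 and 11.5 FPKM with PBS, 7.68, 7.85 and 7.95 FPKM with cisplatin, log2 fold change -0.61). None of 21 interferon ligand genes reached the filter, 10 were listed at 0 in every library, and no ligand gene had more than 9 reads in any library.

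Of 9 interferon receptor, JAK and STAT genes, 6 fell and none rose, with 2 past both thresholds and a median of -0.36 (-1.29 under the Y-linked scaling). Stat2, which carries the transactivation domain of ISGF3, had the largest fall, from 72.5, 75.8 and 73.1 FPKM with PBS to 18.0, 19.3 and 18.9 FPKM with cisplatin (log2 fold change -1.92, limma, adjusted p = 1.01e-07). For its partner Irf9 the same fit gave -0.24.

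DNA-binding partners of Irf4 and Irf8 moved in both directions, with 6 of 13 higher and 5 lower, 2 each past both thresholds, and a median of 0.060 (-0.90 under the Y-linked scaling). Spi1, which encodes PU.1, was at 99.2, 109 and 110 FPKM with cisplatin and at 57.3, 52.7 and 56.5 FPKM with PBS (log2 fold change 0.92, limma, adjusted p = 8.46e-06). Ikzf3, which encodes the lymphoid factor Aiolos, rose furthest (log2 fold change 1.16, limma, adjusted p = 9.63e-07), and the AP-1 gene Jund fell furthest (-1.21, limma, adjusted p = 0.000491). Of 12 cofactors and negative regulators 4 rose and 6 fell, with a median of -0.19 (-1.12 under the Y-linked scaling). The acetyltransferase gene Kat2b had the largest fall (log2 fold change -1.06, limma, adjusted p = 7.95e-07), and 1 other passed both thresholds, also lower.

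Target genes of single members were listed from textbook knowledge. The lists share genes (Il12a, Ciita, Isg15 and Ifit1, for example), and most of their genes answer to other factors too. All 8 tested targets of Irf3 and Irf7 fell, each beyond 2-fold, and their median was -3.31, and Ifit3, an antiviral effector with a close relative that may share its reads, fell furthest (17.2, 19.9 and 16.1 FPKM against 253, 264 and 271 FPKM, log2 fold change -3.82, limma, adjusted p = 8.36e-08). Of 16 ISGF3 targets all fell, 15 past both thresholds, with a median of -1.77 (-2.69 under the Y-linked scaling) and the largest fall in Ifi44 (log2 fold change -4.19, limma, adjusted p = 1.84e-07). Of 11 Irf1 targets 8 fell and 3 rose, 5 and 1 of them past both thresholds, with a median of -0.71 (-1.08 at a pseudocount of 0.1 and -1.32 under the Y-linked scaling). Nos2, which makes nitric oxide, fell furthest (126, 129 and 129 FPKM with PBS, 3.12, 2.86 and 2.32 FPKM with cisplatin, log2 fold change -5.11, limma, adjusted p = 5.39e-08). Ciita, the master switch of MHC class II genes, rose instead (log2 fold change 1.25, limma, adjusted p = 2.49e-05).

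Among 6 tested Irf4 targets 4 rose, all past both thresholds, and 1 fell, with a median of 1.47 over the list (0.71 under the Y-linked scaling). The fall was that of Arg1, short of the fold threshold (log2 fold change -0.51, limma, adjusted p = 1.78e-05). The mannose receptor gene Mrc1 rose furthest, from 0.754, 0.917 and 0.557 FPKM to 11.4, 10.8 and 11.7 FPKM (log2 fold change 2.82, limma, adjusted p = 4.61e-07). All 4 tested Irf5 targets rose, none past the fold threshold, with a median of 0.46 that was -0.50 under the Y-linked scaling. Of 6 tested Irf8 targets 4 rose and 2 fell, 3 and 2 of them past both thresholds, with a median of 0.80 that was -0.17 under the Y-linked scaling. Ciita, also counted among the Irf1 targets, had the largest rise among them. Klf4, a factor of monocyte differentiation, had the largest fall, from 75.3, 72.5 and 74.3 FPKM with PBS to 26.4, 28.4 and 27.9 FPKM (log2 fold change -1.39, limma, adjusted p = 2.81e-07).

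**Figure D4:**
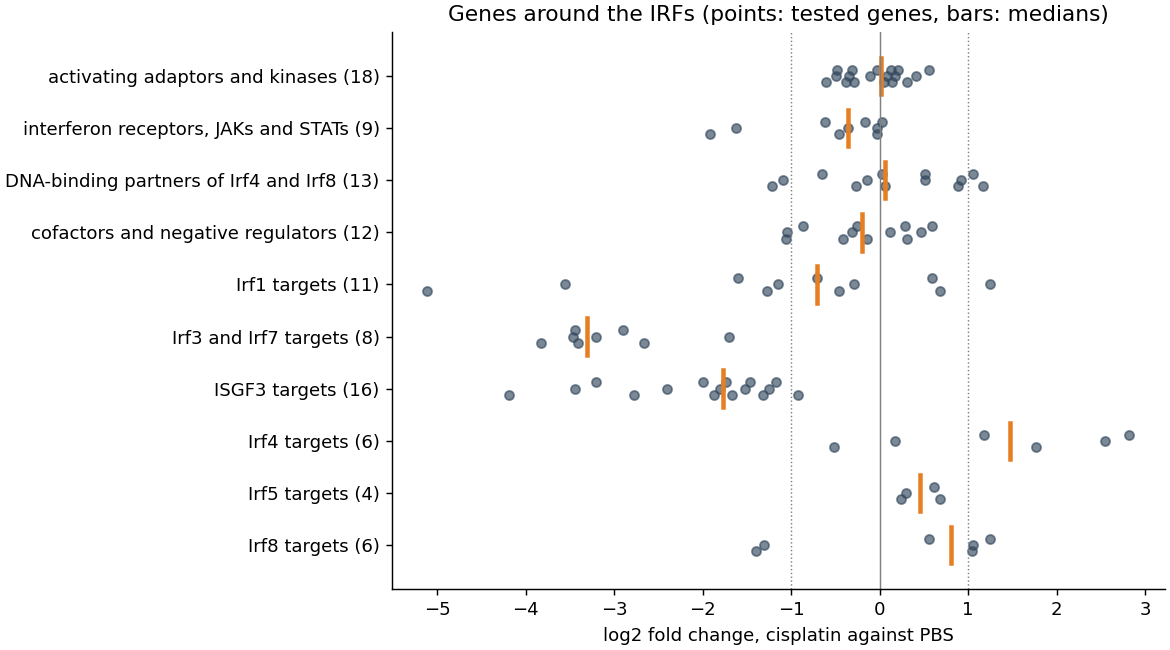
Log2 fold change, cisplatin against PBS, of the tested genes in each list around the IRFs (points, with their number in brackets) and the median of each list (orange bars). Dotted lines mark a log2 fold change of 1 in each direction. The targets of Irf3 and Irf7 and of ISGF3 lay below 0 throughout, and the medians of the Irf4, Irf5 and Irf8 targets lay above 0.

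The genes whose pattern over the 6 libraries was nearest to that of a member were sought for Irf7, Irf1 and Irf5, which had the largest changes, among 8266 tested genes with a mean of at least 5 FPKM. The measure was the root mean square difference of log2(FPKM + 1) centred on each gene's mean. Nearest to Irf7 were Sdc4, which encodes a syndecan (0.028, at 67.6 ± 1.52 against 410 ± 14.9 FPKM), and the glutathione transferase gene Gsta4 (0.034). Nearest to Irf1 were the RNA demethylase gene Alkbh5 (0.016) and Mprip (0.021). Nearest to Irf5 were S100a8, a gene abundant in neutrophils and monocytes (0.023, at 2581 ± 22.3 against 1423 ± 94.2 FPKM), and Arl8a (0.042), which encodes a small GTPase of lysosomes.

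In the table's annotation 7 of the 8 members overlap another gene model, and Irf4 overlaps none. On the opposite strand lie Gm17334 over 907 bases of Irf1 (0.598 FPKM with cisplatin and 1.70 FPKM with PBS), 3 low models beside Irf2, Bcl2l12 beside Irf3, Tnpo3 beside Irf5 and Phrf1 over 45 bases of Irf7, so that shared reads cannot be told apart if counting ignored strand, which no source used here gives. Rnf31 overlaps Irf9 on the same strand by 123 bases and was at 10.1 FPKM with cisplatin and 16.6 FPKM with PBS. Gm20388 spans all of Irf8 on its strand and was listed at 0 in all libraries.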

How the data were processed

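The deposited table gives FPKM per gene and library, made by the authors from trimmed, aligned and counted reads. The submitters' processing notes list fastp, HISAT2 2.0.5, featureCounts 1.5.0-p3 and the build mm10, whereas the study's methods name LifeScope. Members have the same coordinates in GENCODE M21 (GRCm38). FPKM times gene length came in whole multiples of 1 step per library (100% of values under 200 reads, within 0.1), which gave the read totals.

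Genes with at least 1 FPKM in at least 3 of 6 libraries were taken as log2(FPKM + 1). Groups, from the treatment label, were compared in limma 3.58.1 (R 4.3.3, eBayes with a trend, no covariate), with Benjamini-Hochberg adjustment over the 13441 genes tested and a fold threshold of 2, as in the study. This scale understates the change of low genes. The procedure was run on simulated data in which few genes changed, as many up as down, unlike in these data. That run does not bear on the choice of scaling. Members and the 17 gene lists were chosen with earlier results of these data known. Named are all members, Stat2, Spi1, in each pathway or target list the genes past both thresholds with the largest rise and fall, the 2 genes most like each of 3 members, and the most abundant markers. Also named, chosen after their values were seen, are Myd88, Mavs, Arg1, Eif2s3y, Ddx3y and the gene models that overlap members. Some single-gene results of this rule are not reported here. Alternatives were 5 scalings (median of ratios, TPM, quantile, total recovered reads, geometric mean of the Y-linked genes), eBayes without a trend, limma voom on recovered reads, protein-coding genes only, a replicate block, each library left out, a pseudocount of 0.1, dropping the filter or raising it to 5 FPKM, calls by the adjusted p only, and a limma treat test of the fold threshold.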

Additional observations from a re-analysis of the deposited data

How the results depend on the processing

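Irf1 and Irf7 stayed lower and past both thresholds under every alternative fitted (-1.32 to -1.21 and -2.65 to -2.50 without the Y-linked scaling). Scaling by the Y-linked genes reversed Irf3 (-0.89), Irf4 (-0.25), Irf5 (-0.096) and Irf8 (-0.47) and took Irf2 (-1.13) and Irf9 (-1.19) past the fold threshold, so that 4 members were called lower, with 85 genes higher and 5181 lower. It reversed the medians of the activating adaptors and kinases (-0.95), the DNA-binding partners (-0.90), the Irf5 targets (-0.50) and the Irf8 targets (-0.17). It moved those of the receptors, JAKs and STATs to -1.29, the cofactors to -1.12, and the targets of Irf1 to -1.32, of Irf3 and Irf7 to -4.24, of Irf4 to 0.71 and of ISGF3 to -2.69. By construction the scaling centres the Y-linked genes near 0. Quantile normalisation left Irf2 short of the test (-0.12, limma, adjusted p = 0.0848). Leaving out each library gave Irf3 from -0.0038 to 0.099 and changed no other direction or call of a member. The adjusted p alone gave 3 members higher and 4 lower, and 4424 genes higher and 4721 lower, and limma treat 240 and 982. A pseudocount of 0.1 gave 973 genes higher and limma voom 1227. That pseudocount moved the medians of the targets of Irf1 to -1.08, of Irf3 and Irf7 to -3.38, of Irf4 to 2.17 and of ISGF3 to -1.82. Where no construction explains a move, the cause was not tested.

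A replicate block gave 625 genes higher and 1515 lower, with 2 members called lower and no change in a member's call. Same-numbered libraries did not deviate together, with correlations of deviations from the group means of -0.10, -0.086 and -0.024, and none correlated best with its own number. Leaving out each library, the difference in the log2 ratio of Irf4 to Irf5 ran from -0.26 to -0.10, of Irf4 to Irf8 from 0.18 to 0.28, of Irf1 to Irf2 from -1.11 to -1.05 and of Irf7 to Irf3 from -2.75 to -2.67.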
